A study of Homo sapiens with 5 samples.

Results

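The genes examined here encode aminoacyl-tRNA synthetases, the enzymes that attach each amino acid to its matching tRNA before protein synthesis. The members were a list of 35 gene symbols, 19 for cytosolic and 16 for mitochondrial enzymes, out of 20163 protein-coding genes and 64449 annotated genes in all. Each member was scored by the PHF8 peaks that came within 1 kb of any annotated transcription start site (TSS) of that gene. The peaks came from ChIP-seq, the sequencing of DNA that is pulled down with a chromatin protein, with an anti-PHF8 antibody in the SKMEL-147 line, which is established from human melanoma. There were 3 ChIP replicates, A, B1 and B2, and 2 input libraries without antibody, A and B, which entered only as the background of the authors' peak calling. The labels name no added treatment or genetic change, and no cells without PHF8 were analysed here, so there was no comparison between conditions. Nothing in the labels says that the replicates were separate cultures, so the spread between them may be technical. B1 and B2 carry the letter of the single input B, so they may share their background, whereas every SD and test over the replicates below counts A, B1 and B2 as 3 separate values.

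Synthetase genes fall into classes with separate duties. The cytosolic enzymes charge the tRNAs used by cytosolic ribosomes, and several of them assemble with scaffold proteins into the multi-tRNA synthetase complex. The mitochondrial enzymes are encoded in the nucleus, imported, and charge the tRNAs of the mitochondrial translation system, while GARS1 and KARS1 each encode a cytosolic and a mitochondrial form. Many cytosolic synthetase genes are known targets of the transcription factor ATF4, which acts when uncharged tRNA accumulates. PHF8 belongs to the Jumonji C demethylases, which erase methyl marks from histone tails, and its PHD finger docks on a histone mark of active promoters.

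Peak strength is given as fold enrichment, the linear ratio of ChIP signal over local background at the summit, which is the highest point of a peak. The 3 lists held 21506, 20882 and 20120 peaks in A, B1 and B2, with a median fold enrichment of 18.9, 11.8 and 11.8, so the scale of A was not that of the others. Strength was therefore also expressed as a percentile within each replicate, for the strongest promoter peak of a gene among the 12139 protein-coding genes with a promoter peak in all 3 replicates, called bound genes here. Read totals of the libraries are not given in the sources used here, but the ChIP fragments behind each summit could be counted from the listed values, with medians of 54, 39 and 40 over all peaks of A, B1 and B2.

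Every one of the 35 synthetase genes carried a PHF8 promoter peak in all 3 replicates. The same held for 60.2% of all protein-coding genes, and for 81.4% of those whose promoter sequence was CpG-island-like (at least 0.5 of bases G or C, and CpG at no less than 0.6 of the number expected from base composition). All 35 synthetase promoters were CpG-island-like, as were 92.4% of bound genes and 68.3% of all protein-coding genes. The sequence was read at the TSS nearest the summit of A for bound genes and at the canonical TSS for other genes. The anchors thus differ between bound and other genes, which limits the comparison of these shares. Within 250 bp of the TSS, GC content of the members ran from 53.7% to 75.85% and the CpG ratio from 0.664 to 1.07. The strongest promoter peak of each member was far from the calling limit, with a lowest −log10 q-value over the members of 72.3, 39.6 and 29.7 in A, B1 and B2. Within the gene bodies of the members, 0 peaks lay more than 1 kb from every annotated TSS of any gene. Peaks inside a member but near a TSS of another gene were left out of this count, which was not made for other bound genes.

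Stricter cutoffs separated the members. A promoter peak with a fold enrichment above 10 in all 3 replicates was present at 33 members, against 49.6% of protein-coding genes, and SARS1 and VARS1, for serine and valine, were the members without one. With the cutoff at 20, 22 members remained, 11 cytosolic and 11 mitochondrial, against 23.8% of protein-coding genes. Strongest peaks above the 75th percentile in all 3 replicates belonged to 10 members (28.6%), against 15.3% of bound genes, and 0 members were at or below the 25th percentile in all 3 replicates, against 17.6% of bound genes.

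The median member peak was stronger than that of other bound genes in each replicate. For A, B1 and B2, median fold enrichment of the members was 38.2, 26.1 and 24.4, with ranges of 17.9 to 66.3, 12.0 to 46.0 and 9.64 to 41.4. The other bound genes had medians of 33.4, 19.4 and 18.3. The log2 difference of the medians was 0.19, 0.43 and 0.41, or 0.35 ± 0.13 (SD, n = 3), and against other bound genes with CpG-island-like promoters it was 0.31 ± 0.13. A two-sided exact permutation test that flips the signs of the replicates' differences gave p = 0.25 for each, the smallest value that 3 replicates allow, so neither difference could reach significance. The members' summits held a median of 125, 87 and 84 fragments, and those of other bound genes 97, 64 and 63. The median percentile of the members was 62.3, 76.0 and 74.4, or 70.9 ± 7.49 (SD, n = 3), and 22 members were above the 50th percentile in all 3 replicates while 3 were at or below it in all 3. The matching shares of all bound genes were not computed, so these counts carry no comparison.

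**Figure D1:**
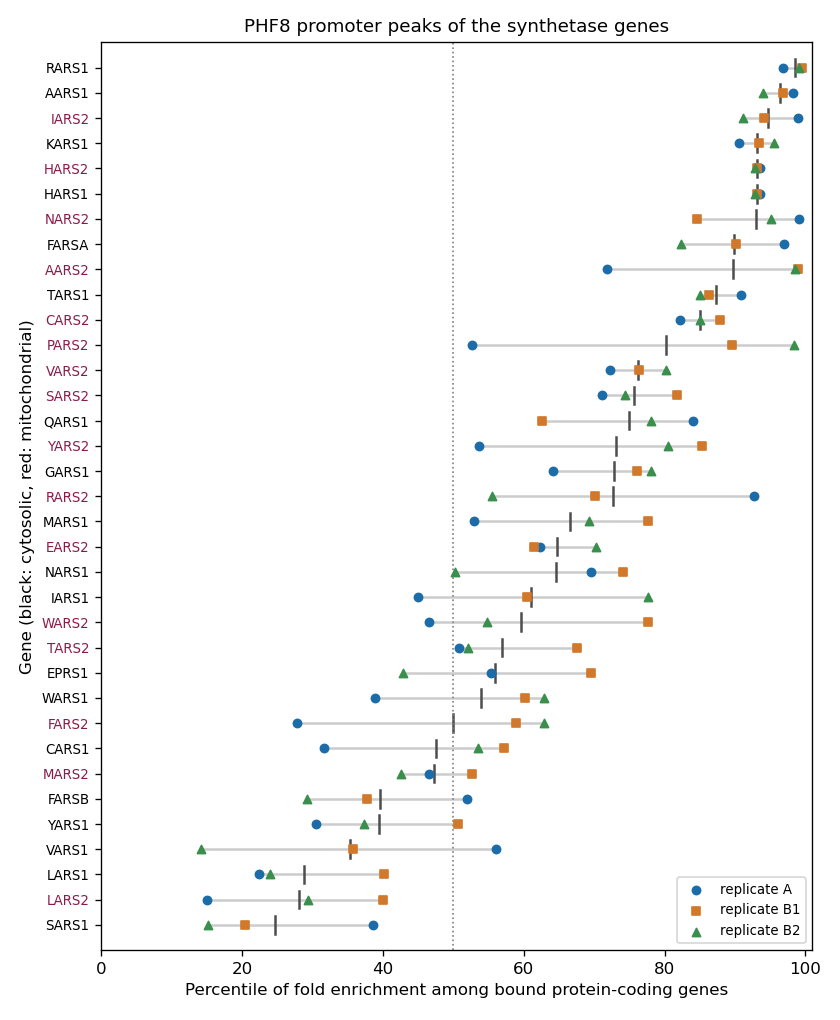
Percentile of fold enrichment of the strongest promoter peak among bound protein-coding genes (x axis) for each synthetase gene (y axis, cytosolic in black and mitochondrial in red), with 1 symbol per ChIP replicate, a grey line over their range, a short bar at the mean and a dotted line at the 50th percentile. RARS1 sits at the top with a mean of 98.5, SARS1 at the bottom with 24.7, and replicate A lies away from B1 and B2 at genes such as PARS2 and AARS2.

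RARS1, which encodes the cytosolic arginyl-tRNA synthetase, had the highest mean percentile, 98.5 ± 1.44 (SD, n = 3). In A, B1 and B2 its fold enrichment was 60.3, 46.0 and 41.4, from 190, 134 and 125 fragments at the summit. The peak of A ran over chr5:167913143-167913968 (hg19), with the summit 107 bp downstream of the nearest TSS, inside intron 1 of the canonical transcript. The bases around that summit are shown because RARS1 had the highest mean over the replicates, although in A alone NARS2, IARS2, AARS1 and FARSA had higher fold enrichments. They lie on the plus strand at chr5:167913561-167913661 and have no capitals since no motif is marked.
RARS1: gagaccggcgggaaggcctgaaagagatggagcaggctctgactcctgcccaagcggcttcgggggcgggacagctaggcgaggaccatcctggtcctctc

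AARS1, the cytosolic alanyl enzyme, followed at 96.3 ± 2.14, with fold enrichments of 63.4, 38.0 and 33.3, and was below RARS1 by less than its SD. It had 3 promoter peaks in each replicate, a main one and flanking ones with fold enrichments between 4.45 and 9.31. IARS2, the mitochondrial isoleucyl enzyme, reached 65.8, 34.8 and 31.1 and a mean percentile of 94.7 ± 3.96. KARS1, the lysyl enzyme of both compartments, had fold enrichments of 53.1, 34.2 and 34.7 and a mean percentile of 93.2 ± 2.52. KARS1 also had the widest member peak, at 1708, 1371 and 1343 bp, where the median width was 845, 728 and 693 bp for members and 824, 721 and 673 bp for bound genes. The means of AARS1, IARS2 and KARS1 differed from each other by less than the SD of IARS2, so their order was within the replicate spread.

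HARS1 and HARS2, the cytosolic and mitochondrial histidyl enzymes, lie head to head and were scored by a single shared peak, so they are 2 genes but 1 measurement. That peak covered chr5:140070446-140071561 in A and had fold enrichments of 56.0, 33.9 and 32.3, with a mean percentile of 93.1 ± 0.357 for both genes. Relative to the nearest TSS, the summit was at 42, 22 and 25 bp for HARS1, downstream, and at -236, -216 and -219 bp for HARS2, upstream, so it was on the HARS1 side in each replicate. The windows searched at both genes held the same pair of matches to the ETS core CCGGAAGT, shown in capitals on the HARS1 strand (minus, hg19) because 1 stretch of sequence serves both genes.
HARS1 at chr5:140071021-140071050: ccagcttcggcACTTCCGGgaggagccgga
HARS1 at chr5:140070946-140070975: cgactcgatagCCGGAAGTcatccttgctg

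At the other end, SARS1 had the lowest mean percentile, 24.7 ± 12.3, with fold enrichments of 28.8, 12.0 and 9.88 from 73, 52 and 44 fragments. LARS2 and LARS1, the mitochondrial and cytosolic leucyl enzymes, came next at 28.1 ± 12.5 (17.9, 16.7 and 13.6) and 28.8 ± 9.88 (22.1, 16.9 and 12.3). The means of these 3 genes differed by less than their SDs. VARS1 had a mean of 35.3 ± 21.0, and its percentiles were 56.1, 35.8 and 14.1. YARS1, the cytosolic tyrosyl enzyme, was at 39.5 ± 10.2, with fold enrichments of 25.7, 19.4 and 15.4. Apart from VARS1, whose A percentile was above 50, and YARS1, at 50.6 in B1, these genes were at or below the 50th percentile in every replicate. The remaining 24 members had mean percentiles between 39.6 ± 11.5 (FARSB) and 92.9 ± 7.47 (NARS2, the mitochondrial asparaginyl enzyme).

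At some genes the percentile moved with the local background, the number of fragments expected at the summit, and at others it did not. Genome-wide it was 1.567, 1.932 and 2.044 in A, B1 and B2, and at VARS1 the local value was 1.998, 4.25 and 5.33 while the fold enrichment was 35.7, 15.8 and 9.64. The expected number at PARS2, the mitochondrial prolyl enzyme, was instead highest in A, at 4.02 against 2.55 and 2.51, with percentiles of 52.7, 89.6 and 98.3. By contrast, FARS2, the mitochondrial phenylalanyl enzyme, was at the genome-wide background in all 3 replicates and had percentiles of 27.8, 58.9 and 62.9, and IARS1, the cytosolic isoleucyl enzyme, had a local background of 3.35, 3.25 and 3.35 and percentiles of 45.0, 60.5 and 77.7. Ranking by fragments raised the mean percentile of 15 members and lowered that of 20. It went from 35.3 to 58.1 at VARS1, from 80.2 to 95.5 at PARS2 and from 61.1 to 84.1 at IARS1, and from 64.7 to 52.6 at EARS2 and from 87.4 to 76.8 at TARS1. The part of local background in these differences was not tested beyond this. Across the 35 members, fold enrichment had a Spearman's rho of 0.779 for A and B1, 0.725 for A and B2 and 0.911 for B1 and B2, which may share an input, and with fragments it was 0.914, 0.888 and 0.922. Those values are across genes, which share libraries and base composition and are not independent replicates. The percentile of A was below both others at 19 members, above both at 12 and between them at 4, and 18 members had a range over 20 percentile points.

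Mitochondrial synthetase genes had a slightly higher median peak strength than cytosolic ones in each replicate. Median fold enrichment was 35.7, 24.2 and 23 for the 19 cytosolic genes in A, B1 and B2, and 40.0, 27.3 and 25.3 for the 16 mitochondrial genes. The cytosolic minus mitochondrial log2 difference was -0.17, -0.17 and -0.14, or -0.16 ± 0.02 (SD, n = 3, p = 0.25 by the exact sign-flip permutation test, the smallest possible). In percentiles the medians were 56.1, 69.6 and 69.2 against 66.7, 79.7 and 77.3, a difference of -9.59 ± 1.36 points, which turned to 11.3 ± 23.8 among the 22 members with a fold enrichment above 20 in all 3 replicates. In the full set the difference kept its sign in every replicate but was small beside the range of either class, which ran from 22.1 to 63.4 for cytosolic and from 17.9 to 66.3 for mitochondrial genes in A.

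**Figure D2:**
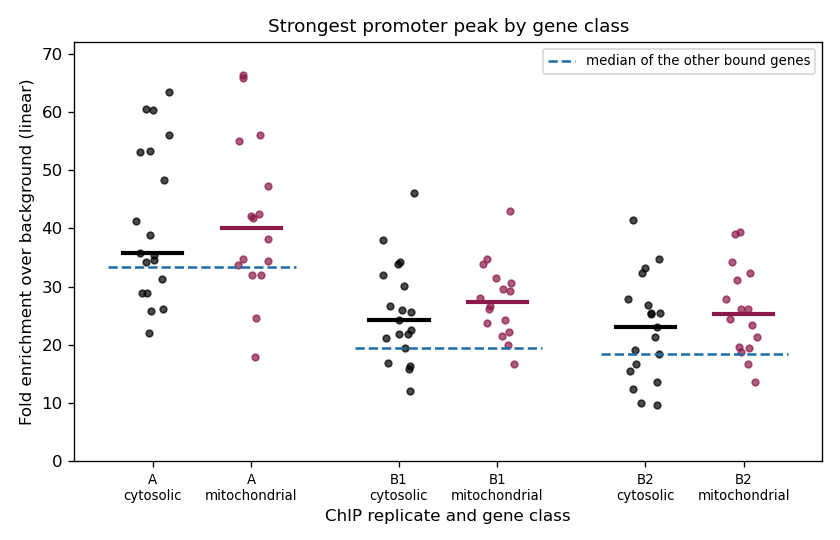
Fold enrichment of the strongest promoter peak (y axis, linear) for each synthetase gene by ChIP replicate and class (x axis), with a point per gene, a bar at the class median and a dashed line at the median of other bound protein-coding genes. In A the class medians are 35.7 (cytosolic) and 40.0 (mitochondrial) against 33.4 for other bound genes, and the points of both classes overlap over most of their range in every replicate.

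Setting the cytosolic against the mitochondrial gene for the same amino acid gave 17 pairs, with no shared direction. A pair was taken to differ where the order was the same in all 3 replicates and the mean difference in percentile exceeded the larger of the SDs of both genes. By this rule the mitochondrial gene was stronger in 6 pairs. The largest difference, cytosolic minus mitochondrial, was that of the serine pair SARS1 and SARS2, -51.0 ± 16.1 points, followed by valine (-41.0 ± 24.96), cysteine (-37.5 ± 11.2), tyrosine (-33.6 ± 10.1), isoleucine (-33.6 ± 20.3) and asparagine (-28.3 ± 17.1). The cytosolic gene was stronger in 4 pairs, with 39.9 ± 26.02 points for FARSA over FARS2 (phenylalanine), 30.5 ± 10.8 for threonine, 25.7 ± 19.99 for arginine and 19.4 ± 11.3 for methionine. The order was mixed among replicates in 6 pairs (AARS1 and AARS2, LARS1 and LARS2, WARS1 and WARS2, EPRS1 and EARS2, EPRS1 and PARS2, FARSB and FARS2), and the histidine pair shared its peak. With fragments in place of fold enrichment the cysteine pair was no longer apart (7.09, -19.9 and -16.7 in A, B1 and B2), and FARSB minus FARS2 went from a mean of -10.2 to 16 with FARSB higher in all 3, though by less than the larger SD of both genes. Without replicate A, 9 pairs in place of 6 had the mitochondrial gene higher. FARSA and FARSB, the 2 subunits of the cytosolic phenylalanyl enzyme, stood apart from each other, with fold enrichments of 60.6, 31.9 and 26.9 for FARSA and 34.1, 16.3 and 13.6 for FARSB.

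**Figure D3:**
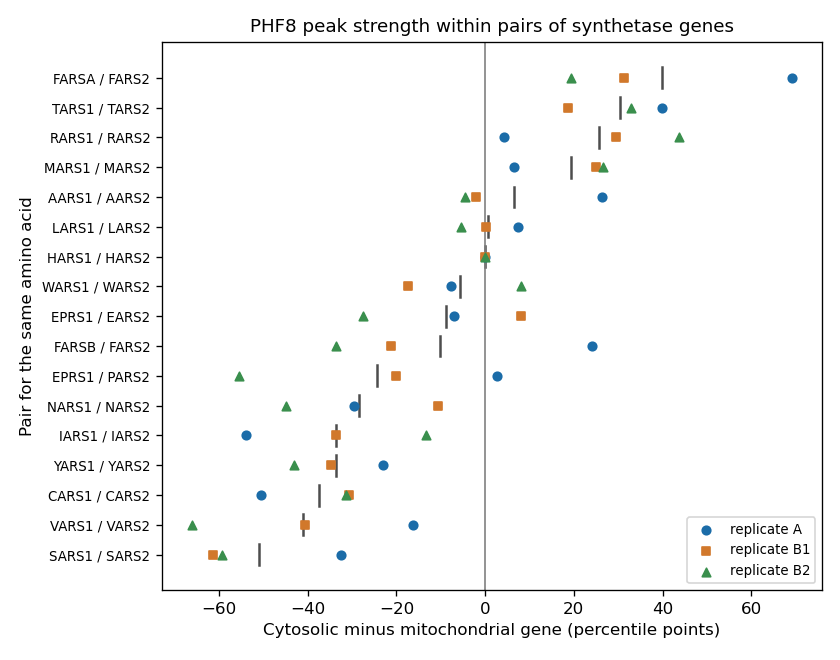
Cytosolic minus mitochondrial percentile of fold enrichment (x axis, percentile points) for the 17 same amino acid pairs (y axis), with 1 symbol per ChIP replicate, a short bar at the mean and a line at 0. The means run from -51.0 at serine to 39.9 at FARSA and FARS2, with pairs on both sides of 0.

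The 7 cytosolic members of the multi-tRNA synthetase complex did not form a group by peak strength. Their mean percentiles ran from 28.8 (LARS1) to 98.5 (RARS1), with KARS1 near the top. QARS1, the glutaminyl enzyme, had fold enrichments of 48.3, 22.5 and 25.5, MARS1, the methionyl enzyme, 34.6, 26.6 and 23, and IARS1 31.3, 21.9 and 25.3. EPRS1, which joins the glutamyl and prolyl enzymes in 1 chain, had 35.5, 24.2 and 16.7. The median percentile of the 7 minus that of the other 12 cytosolic genes was -4.81, 2.48 and 19.5 in A, B1 and B2 (mean 5.71 ± 12.5, SD, n = 3, p = 0.75 by the exact sign-flip permutation test). The difference thus changed sign between replicates, whereas by fragments it was 20.2 ± 6.03 (p = 0.25 by the same exact permutation test).

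The other genes of tRNA charging and its sensing were also bound, 18 of 18 on the list examined, with a median of their mean percentiles of 65.1, against the share of 60.2% of protein-coding genes that were bound. EIF2AK4, the kinase GCN2 that senses uncharged tRNA, was the highest of the list at 95.5 ± 1.65, with fold enrichments of 57.8, 38.9 and 33.3. GCN1, which activates that kinase, and ATF4 had mean percentiles of 87.2 ± 2.74 and 83.2 ± 5.59, and DDIT3, a downstream transcription factor, had 76.5 ± 3.95. The scaffold genes of the complex differed, with 88.6 ± 8.55 at AIMP2, 44.4 ± 18 at AIMP1 and 42.5 ± 10.6 at EEF1E1. GATB, a subunit of the mitochondrial glutamyl-tRNA amidotransferase, was the lowest of the list at 20.6 ± 11.6 (16.8, 15.3 and 9.86), close to the QRSL1 subunit at 20.9 ± 9.49, whereas the GATC subunit had 86.6 ± 16.3. Elongation factors that carry or load charged tRNA ran from 36.8 ± 8.92 (EEF1B2) to 84.9 ± 7.02 (TSFM). The remaining genes, AARSD1 and DTD1, which clear wrongly charged tRNA, had 64.5 ± 23.8 and 53.2 ± 19.7.

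Most summits of the synthetase genes lay just inside the gene. The summit was downstream of the nearest TSS of the same gene at 28 of 35 members in A (80.0%, 95% Wilson interval 64.1 to 90.0), and at 27 of 35 in B1 and in B2 (77.1%, 61.0 to 87.9). The mean share was 78.1 ± 1.65% (SD, n = 3), beside 65.8%, 65.9% and 66.3% of bound genes. Intervals cover counting error only. In all 3 replicates the summit was downstream at 26 members (74.3%), against 55% of bound genes, and upstream at 5 members (14.3%; AARS1, EARS2, HARS2, NARS2 and SARS2), against 23.1% of bound genes. The median position was 82, 86 and 64 bp downstream for members and 76, 73 and 75 bp for bound genes. In the canonical transcript, the summit fell in intron 1 at 13 members and in coding sequence at 9. It was upstream of that transcript at 5 (EARS2, FARS2, HARS2, SARS2 and WARS1), in the 5′ untranslated region at 2 (NARS2 and VARS1), and in differing features at 6. These features were not counted at other bound genes, so they carry no comparison. The side of a summit depended on the TSS used. From the canonical TSS, AARS1 summits were at 137, 149 and 135 bp and NARS2 summits at 179, 187 and 173 bp, downstream. FARS2 summits were at -347, -378 and -355 bp and WARS1 summits at -796, -797 and -1292 bp, upstream.

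**Figure D4:**
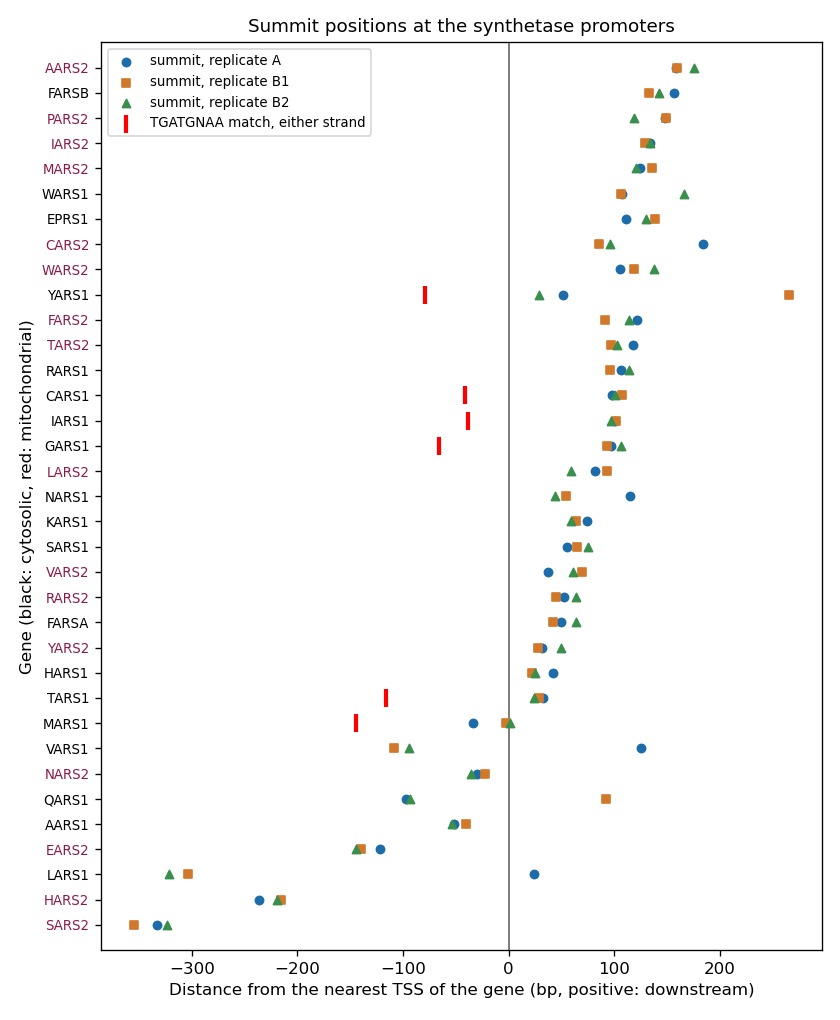
Distance of the strongest summit from the nearest TSS of the same gene (x axis, bp, positive downstream) for each synthetase gene (y axis, cytosolic in black and mitochondrial in red), with 1 symbol per ChIP replicate and red bars at TGATGNAA matches on either strand. At 26 genes all 3 symbols lie downstream, and at 5 all lie upstream. The 6 genes with a match have it between -148 and -42 bp of the TSS nearest the summit of A, which at each of them is not the canonical TSS.

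The strongest peak was at the same site in all 3 replicates at 32 members, with summits within 50 bp at 30 of them and a median range of 21.5 bp. The matching values of other bound genes were not computed, so these counts do not set the members apart. CARS2, the mitochondrial cysteinyl enzyme, had 3 separate promoter regions, of like strength in A but not in B1 (positions as in A). Fold enrichments in A, B1 and B2 were 46.0, 30.7 and 27.9 at chr13:111358001-111358518, 47.4, 21.6 and 23.2 at chr13:111364373-111365384, and 43.2, 21.8 and 23.7 at chr13:111365532-111366700. The second of these was the strongest in A and the first in B1 and B2, and a weaker peak lay beside the first. In A the second peak also held a TSS of ING1, a protein-coding gene on the opposite strand. Its summit there was at -6186 bp from the canonical TSS of CARS2, upstream, so the value scored for CARS2 in A may belong to ING1. LARS1 had a peak near its TSS with 22.1, 12.2 and 10.7 and a second one farther upstream, with its summit at -308, -304 and -322 bp, with 13.3, 16.9 and 12.3, and YARS1 likewise had a pair of peaks, with 25.7, 12.3 and 15.4 and with 21.4, 19.4 and 11.5. At GARS1 and MARS1 the peak lay far inside the annotated gene, since the gene record begins at a remote TSS. The GARS1 summit was 14478, 14474 and 14488 bp from the start of the record but 97, 93 and 107 bp from the nearest TSS, with fold enrichments of 38.9, 26.1 and 25.4.

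Because promoters can be shared, a peak may be scored for neighbours too. The strongest peak also held a TSS of a gene on the opposite strand, in all 3 replicates, at 11 members (31.4%), against 25.6% of bound genes. For 7 of them that gene was protein-coding. HARS1 and HARS2 faced each other, KARS1 faced TERF2IP, a telomere protein gene, and SARS2 (41.9, 28.0 and 24.4) faced MRPS12, a mitochondrial ribosomal protein gene. RARS2, the mitochondrial arginyl enzyme (55, 24.3 and 19.5), faced ORC3 of the origin recognition complex, EARS2, the mitochondrial glutamyl enzyme (38.2, 22.2 and 23.3), faced UBFD1, and FARS2 (24.5, 21.5 and 21.4) faced LYRM4, an iron-sulfur cluster assembly gene. GARS1, WARS2 (31.9, 26.6 and 19.4), YARS2 (34.8, 29.6 and 26.2) and CARS1 (26.1, 21.1 and 19.1) had non-coding RNA genes on the other strand. Outside the 11, the strongest peak held a protein-coding TSS of the opposite strand in some replicates only. These were CARS2 with ING1 in A, YARS1 with S100PBP in B1, and WARS1 with WDR25 in B1 and B2. Which gene of such a pair a peak belongs to cannot be told apart from these lists. The median percentile of the 11 minus that of the other 24 members was 8.49, 5.83 and 0.916 (mean 5.08 ± 3.84, SD, n = 3, p = 0.25 by the exact sign-flip permutation test, the smallest possible).

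The promoters were also searched for short motifs, first for the core of the C/EBP-ATF response element, the kind of site at which ATF4 acts. The window from 250 bases before to 50 after the TSS nearest the summit of A was searched on both strands for TGATGNAA. At genes that were not bound, the canonical TSS was used in its place. A match was present at 6 of 19 cytosolic promoters (31.6%) and 0 of 16 mitochondrial ones, against 1.17% of bound and 2.41% of all protein-coding genes. A match is a description of letters and not an occupied site. The 6 sequences are shown because, of the motifs searched, this one had the cytosolic share farthest from that of all promoters. Capitals mark the match, in either orientation, on the strand of the gene in hg19.
CARS1 (minus strand), chr11:3078637-3078666: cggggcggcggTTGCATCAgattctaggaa
GARS1 (plus strand), chr7:30634450-30634479: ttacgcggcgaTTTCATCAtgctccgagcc
IARS1 (minus strand), chr9:95055974-95056003: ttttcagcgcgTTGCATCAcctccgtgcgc
MARS1 (plus strand), chr12:57881836-57881865: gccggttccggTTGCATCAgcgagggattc
TARS1 (plus strand), chr5:33441062-33441091: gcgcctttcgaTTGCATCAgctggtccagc
YARS1 (minus strand), chr1:33282938-33282967: ccgagcccagcTGATGCAAcctggctggac

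The count depended on which TSS anchored the window. Another anchor was the canonical TSS, or the start of the gene record where a transcript listed earlier shared the canonical start. With it the count was 5 of 19 cytosolic promoters (AARS1, CARS1, IARS1, NARS1 and YARS1) and 1 of 16 mitochondrial ones (YARS2), against 2.54% of all protein-coding genes. The matches shown for GARS1, MARS1 and TARS1 also lie within these limits of their canonical TSS but were not counted there. The count thus mixes both anchors, as does the 2.54%, and is not that of the canonical TSS alone. From the canonical TSS, the 6 matches shown lay upstream at GARS1 and IARS1, across it at CARS1 and MARS1, and downstream at TARS1 and YARS1. With any TSS of the gene the count was 12 of 19 and 6 of 16, against 15.1%. More annotated TSSs give a gene more windows, and the members had from 1 (MARS2 and PARS2) to 36 (QARS1). The number of TSSs was not matched between members and other genes, so the shares at any TSS are no measure of enrichment. PHF8 peak strength at the 6 cytosolic promoters with a match had no constant direction against the rest. Their median percentile minus that of the other 13 cytosolic genes was -20.5, -1.34 and 10.5 in A, B1 and B2 (mean -3.78 ± 15.7, SD, n = 3, p = 0.75 by the exact sign-flip permutation test). TARS1, the threonyl enzyme, was the highest of the 6 at 87.4 ± 3.05 and YARS1 the lowest.

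The core of NRF1, a factor known for driving nuclear genes of mitochondrial proteins, was found at few members, all of them mitochondrial. GCGCATGC was found on either strand at 3 mitochondrial promoters (18.8%) and 0 cytosolic ones, against 5.93% of bound and 4.11% of all protein-coding genes. At shares this low, 0 of 19 cytosolic promoters is not far from the background. At MARS2 and VARS2 the letters of this core on both strands overlapped in 1 site. These 3 sites are shown because they were the only ones found at members, with capitals for the match.
MARS2 (plus strand), chr2:198570055-198570084: gcgacccggctGCGCATGCgcctctcacac
VARS2 (plus strand), chr6:30881981-30882010: agccagctgctGCGCATGCgccggccgggg
YARS2 (minus strand), chr12:32908893-32908922: aaccgtctcggGCATGCGCagaaaaacact

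MARS2, VARS2 and YARS2, for methionine, valine and tyrosine, had mean percentiles of 47.2 ± 5.05, 76.3 ± 3.98 and 73.1 ± 17.1. The ETS core CCGGAAGT, of a large family of activators, was found at 5 members (14.3%; CARS1, HARS1, HARS2, PARS2 and WARS1), against 9.18% of bound and 5.81% of all protein-coding genes. The E-box CACGTG, read by MYC and related factors, was found at 4 members (11.4%; IARS1, VARS1, MARS2 and NARS2), against 9.79% and 8.31%. These counts also moved with the anchor. With any TSS of the gene, the E-box was found at 5 of 19 cytosolic and 8 of 16 mitochondrial promoters, against 21.0% of all protein-coding genes, and the ETS core at 5 and 3, against 8.32%. Here too the number of TSSs per gene was not matched.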

How the data were processed

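PHF8 ChIP-seq of SKMEL-147 cells was read from 1 peak list per ChIP replicate. The inputs had no list of their own and were not analysed here. As the study's methods state, reads were mapped by the authors with Bowtie2 (default settings, hg19), and narrow peaks were called with MACS against input, per replicate and without pooling. The submitters' processing notes also name Picard and bcl2fastq, and the treatment of duplicate reads is not given in the sources used here. The deposited fold enrichment is a linear ratio at the summit. The authors deposited p-values and q-values as −log10 values, and a score that is 10 times the −log10 q-value, which was not used. The study's cutoffs (enrichment above 1.5, q read as below 0.05) removed 0 peaks.

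Coordinates were checked against GRCh37, the same build, and 0 peaks passed the end of a chromosome. Every transcript start in the GRCh37 version of GENCODE release 44 was a TSS (221300 pairs of gene and TSS), and a peak counted at an overlap of at least 1 bp with the window. Where several peaks qualified, the one of highest fold enrichment was used. The fragment count n at each summit was solved from the fold enrichment, (n + 1) over (background + 1), and the Poisson p-value, and was whole for 100% of peaks within 0.001. The steps were tested on simulated data. Classes were compared within each replicate, and the 3 differences were tested by exact two-sided permutation of their signs. Python 3.11.15, pandas 2.3.3, numpy 2.4.6, scipy 1.17.1, pysam 0.24.0, samtools 1.23.1 and matplotlib 3.10.9 were used.

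The members, the other gene lists and the tests were chosen with earlier results of these data known. Values in each replicate were given for the 5 highest and 5 lowest members by mean percentile, members sharing a peak with another gene, GARS1, KARS1 and the complex genes. FARSA, FARSB, PARS2, CARS2 and the genes of tRNA charging other than the highest and lowest were added after their values were seen. Alternatives were a q-value below 0.001, fold enrichment above 4 or 10, the summit inside the window, windows of 500 bp or 2 kb, 1 TSS for each gene, a peak in at least 2 replicates, fragments in place of fold enrichment, CpG-island-like genes alone, protein-coding opposite-strand genes alone, and leaving out each replicate. A fold enrichment above 20 and the other anchors of the motif search (the canonical TSS or gene start, and any TSS) were added after seeing the data. So were all alternatives for the pairs and the percentile differences between groups of members.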

Additional observations from a re-analysis of the deposited data

How the results depend on the processing

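No paired analysis was possible because only 1 group, the ChIP replicates, has files, and the inputs have none. Of the results with a direction, the class difference in log2 fold enrichment kept its sign under every alternative run. It stayed at -0.16 under the stricter q-value and fold enrichment cutoffs, which left the strongest peaks unchanged and kept members without a passing peak at the bottom. Those cutoffs could therefore hardly move the class medians, and the unchanged value is no sign of stability. Percentile differences between groups of members were less stable. Complex minus other cytosolic genes went from 5.71 to -3.89 above a fold enrichment of 10, -19.3 above 20 and -1.15 without replicate B2 (10.96 without A). Cytosolic genes with TGATGNAA minus those without went from -3.78 to 4.64 with fragments and 4.59 without replicate A (-10.8 without B2). Above a fold enrichment of 20, cytosolic minus mitochondrial turned from -9.59 to 11.3, and members with an opposite-strand TSS minus the rest from 5.08 to -17.3. Leaving out a replicate gave -10.3 to -9.06 and 3.37 to 7.09 for the last 2, and 6 to 9 pairs with the mitochondrial and 3 to 4 with the cytosolic gene higher. Above a fold enrichment of 20, 4 pairs could be compared, and 1 was called in each direction. With any TSS as anchor, TGATGNAA matches went from 6 to 12 cytosolic and 0 to 6 mitochondrial members (1 with the canonical TSS or gene start), E-boxes from 2 to 5 and 2 to 8, and ETS cores from 3 to 5 cytosolic members. Above a fold enrichment of 20, the members with a peak in all 3 replicates fell from 35 to 22 and the cytosolic ones from 19 to 11. The median percentile of the 22, taken among the genes passing that cutoff, was 57.3, and 71.2% of their summits were downstream. With 1 TSS per gene, 33 members were bound, GARS1 and MARS1 being lost, and 88.9% of summits were downstream. The downstream share of all bound genes was not computed under either setting, so these shares have no matching background. The share of protein-coding genes bound was 49.6% above a fold enrichment of 10, 23.8% above 20, 54.0% with 1 TSS per gene, 61.3% for a peak in at least 2 replicates and 81.4% among CpG-island-like promoters. With protein-coding opposite-strand genes alone, 7 members had such a neighbour in place of 11. Leaving out each replicate in turn gave 35 members in every case, a class difference in log2 fold enrichment of -0.17 to -0.15, a median percentile of 68.6 to 75.2, 11 to 12 members with an opposite-strand TSS and 77.1% to 78.6% of summits downstream. The class difference was -0.26 with 1 TSS per gene and -0.20 with fragments. Single genes were less settled than the group. With fragments in place of fold enrichment, 15 of 35 members moved by more than 1 SD of their percentile over the replicates. The cause of that was not tested. Moves of that size were also seen at 10 of the 33 left above a fold enrichment of 10 and 20 of the 22 left above 20. Percentiles were there taken again among the genes passing the cutoff, 10001 and 4789 in place of 12139. They therefore moved while the peaks stayed the same, so these moves do not show that single genes were unsettled. With 3 replicates no difference could go below p = 0.25 in the exact permutation test, and without read totals the depth of the libraries is known only at the summits.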
